A study of Mus musculus with 48 samples.

Results

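Airspace macrophages of Siglec-F knockout (KO) mice 14 days after bleomycin were compared with those of naive KO mice, across every expressed gene. The comparison holds 6 of the 24 mice of the study, 3 at day 14 and 3 naive, and 12634 of the 24411 genes in the table had enough counts to be tested. Per the labels, all mice were male, the cells are macrophages recovered from bronchoalveolar lavage (BAL), and bleomycin was given into the trachea (IT) at 2.5 units/kg. The naive group is named naïve in the titles and carries a saline control treatment and day 0 in the other labels. Wild type (WT) mice, naive and at day 14, and KO mice at day 7 served for the tests of where the KO day 14 response differed, each with 3 mice. How the Siglecf allele was disrupted, the age and strain of the mice and how macrophages were separated from other lavage cells were not stated in any source at hand.

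Alveolar macrophages live in the airspaces, where they take up surfactant lipid, depend on GM-CSF signals and the nuclear receptor PPAR-gamma, and carry Siglec-F, an inhibitory receptor for sialic acids, on their surface. Bleomycin breaks DNA and injures the alveolar epithelium; inflammation and then collagen deposition follow. During that course monocytes enter the airspaces and turn into macrophages, which at first carry monocyte genes and later take on an alveolar macrophage pattern. Macrophages of fibrotic lungs are known for Spp1, Trem2, Arg1 and matrix-degrading enzymes.

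Library totals ran from 39052898 to 41220913 counts in the naive and from 24877049 to 33302197 counts in the day 14 mice. Siglecf (mm10 chromosome 7, 43351341 to 43359531) held 12, 7 and 25 counts in the naive and 0, 4 and 4 counts in the day 14 KO mice, that is at most 0.577 CPM, against 403 to 481 CPM in naive WT mice. CPM is a gene's count relative to its library total after TMM scaling, comparable between mice but, with no correction for length, not between genes. Of the macrophage markers, Lyz2 was between 15800 and 18900 CPM in the naive mice and at 39900, 31000 and 24400 CPM at day 14, and Cd68 at 1150 to 1230 and 1460 to 1850 CPM. The ribosomal RNA precursor Rn45s took 3.44, 2.87 and 3.33% of the counts in naive and 1.74, 2.53 and 2.93% in day 14 mice, lowest in the first of these, and its part in the results was not tested. The 3 day 14 mice were spread out on the first principal component of the 12634 tested genes in 24 mice (57.5% of the variance). The day 14 mice lay at 21.6, 1.63 and -15.8, while the naive mice lay between -58.1 and -54 and the KO day 7 mice between 19.6 and 38.7. Below, mouse 1, mouse 2 and mouse 3 name the mice of a group in this order of their labels. The labels do not state that the order carries a meaning.

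At day 14, 2132 genes had changed against naive mice, which is 16.9% of the genes tested (edgeR quasi-likelihood test, Benjamini-Hochberg adjusted p under 0.05). Of these, 1521 were higher (12%) and 611 lower (4.84%), and 1069 differed at least 2-fold; an unadjusted p under 0.05 was reached by 3779 genes (29.9%). The rise was the steeper side: the median log2 fold change was 1.57 over the genes that rose and -0.58 over those that fell, against 0.01 over all tested genes. In 5119 genes (40.5%) the 3 day 14 mice did not overlap the 3 naive mice. The day 14 mice did not contribute evenly. Mouse 1 was the highest of the 3 in 1076 of the 1521 genes that rose (70.7%, against 39.5% of all tested genes), mouse 2 in 332 and mouse 3 in 113. Mouse 3 was the lowest of the 3 in 1088 of them (71.5%). Of the 611 genes that fell, mouse 1 was the lowest in 358 (58.6%) and mouse 3 the highest in 398 (65.1%). Without day 14 mouse 1 the test called 1276 genes, and 1386 without naive mouse 2. The genes that fell numbered 254 without day 14 mouse 1, 292 without day 14 mouse 2, 682 without day 14 mouse 3, and 346, 289 and 310 without naive mouse 1, 2 or 3. In bulk RNA a change in the share of cells of a kind and a change in the RNA of each cell cannot be told apart, which holds for every value that follows. Counts of list members called against naive mice are to be read beside the 12% of all tested genes called higher and the 4.84% called lower.

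**Figure D1:**
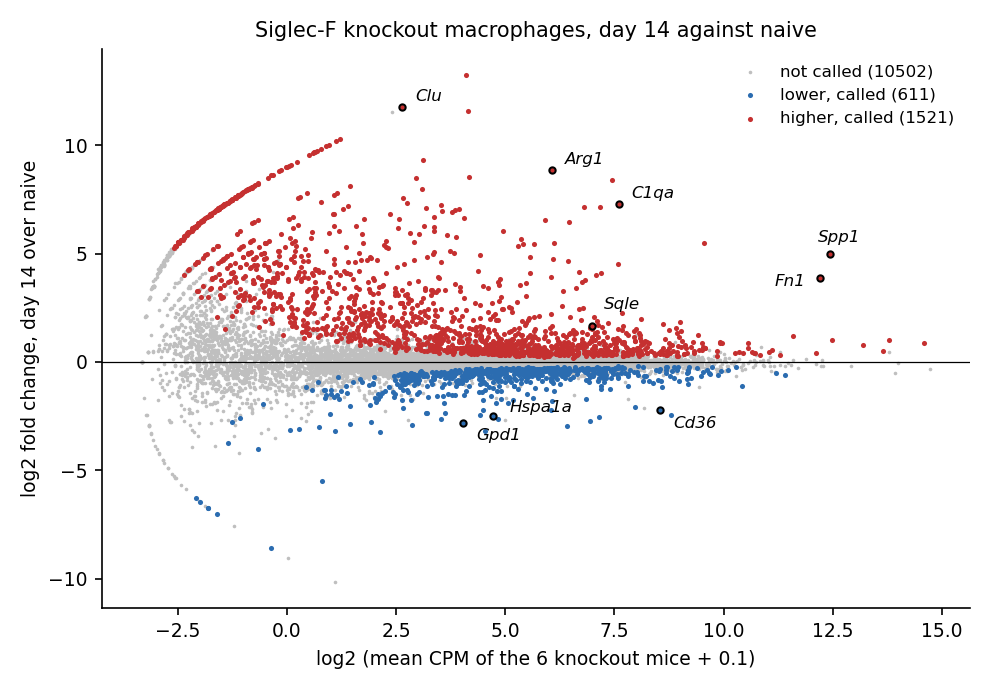
Each point is 1 of the 12634 tested genes; the x axis is its mean level over the 6 KO mice on a log2 CPM scale and the y axis its log2 fold change, day 14 over naive, with the 1521 genes called higher and the 611 called lower in colour. The genes that rose reach larger fold changes than those that fell.

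The largest rises with no overlap that held without any 1 mouse were in genes close to silent in naive mice. Rai14, an actin-associated protein, was at 0.046, 0.0242 and 0 CPM in naive and at 23.4, 17.5 and 10.4 CPM in day 14 mice (log2 fold change 9.31 ± 0.71 SE, adjusted p = 6.7e-08). B4galt6, a glycolipid galactosyltransferase, was at 0 to 0.0966 CPM in naive and at 21.8, 16.5 and 7.48 CPM in day 14 mice (8.48 ± 0.81, adjusted p = 4.5e-07). Both genes were highest in mouse 1 and lowest in mouse 3. Clu, an extracellular chaperone, was at 0 in all naive mice and at 31.2, 3.24 and 2.54 CPM at day 14, at least 525-fold higher against a floor of 3 counts over the naive group. The hemoglobin genes Hbb-b1 and Hba-a1 also stood among the largest rises; they mark red cells and are described with the markers of other cells.

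The largest falls that held without any 1 mouse were smaller. Gpd1, the cytosolic glycerol-3-phosphate dehydrogenase that feeds glycerol into lipid synthesis, was at 31.7, 25.2 and 29.1 CPM in naive and at 3.78, 2.66 and 5.65 CPM in day 14 mice (-2.82 ± 0.45, adjusted p = 0.00015). Every day 14 mouse was far below every naive mouse. Hip1r, which links endocytic coats to actin, went from 19.1, 19.4 and 20.7 CPM to 1.93, 2.42 and 5 CPM. The glutamate transporter gene Slc1a3 fell by 2.90 on the log2 scale, Spag11b fell by 3.19, the tight junction gene Cldn1 fell by 2.65 and the myeloid receptor gene Cd300e fell by 2.36. The inducible heat shock genes Hspa1a and Hspa1b both fell by 2.50; Hspa1a was at 53.2, 38.8 and 41.2 CPM in naive and at 7.16, 6.1 and 10.3 CPM in day 14 mice. These are near-identical neighbours, so the split of reads between them is uncertain.

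Genes of fibrosis-associated macrophages rose in part. Of 22 listed and tested, 12 rose, 1 fell and 9 were not called, beside 12% and 4.84% of all tested genes, and their median log2 fold change was 1.65 against 0.01 over all genes. Spp1, the gene of osteopontin, a protein secreted into the matrix, was at 391, 277 and 356 CPM in naive and at 15900, 11200 and 5260 CPM in day 14 mice. The groups were far apart, with mouse 1 highest and mouse 3 lowest (4.98 ± 0.53, adjusted p = 1.3e-06). Fn1, which encodes fibronectin, a matrix protein that also scaffolds collagen, went from 440, 805 and 576 CPM to 8860, 10500 and 7460 CPM (3.88 ± 0.38, adjusted p = 4.8e-07). Arg1, the arginine-cleaving enzyme arginase, was at 0.322, 0.145 and 0.392 CPM in naive and at 206, 135 and 65.6 CPM in day 14 mice (8.86 ± 1.12, adjusted p = 1e-05). The macrophage elastase gene Mmp12 went from 12.3, 8.14 and 11.9 CPM to 184, 259 and 141 CPM (4.17 ± 0.47), with mouse 2 the highest. Mmp14, a membrane-bound collagenase, went from 1.33 to 2.25 CPM in naive mice to 312, 152 and 55.4 CPM (6.47 ± 0.65, adjusted p = 7.1e-07).

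Lipid-sensing and clearance genes of the same list moved too. Trem2, a lipid receptor, was at 54.9, 45.1 and 49.3 CPM in naive and at 277, 220 and 139 CPM in day 14 mice (2.09 ± 0.24, adjusted p = 2.7e-06). Mfge8, which bridges dying cells to phagocytes, went from 19.9, 14.5 and 13.1 CPM to 529, 373 and 204 CPM (4.54 ± 0.36, adjusted p = 8.5e-08). Il7r was at 0 to 0.345 CPM in naive and at 20.2, 19.9 and 12 CPM in day 14 mice. The member that fell was Cd36, the fatty acid and oxidised-lipid receptor, chosen for description after its values were seen. It went from 594, 638 and 621 CPM to 85.3, 113 and 205 CPM (-2.20 ± 0.35, adjusted p = 0.00012), with mouse 3 nearest the naive mice. Gpnmb, often listed with Spp1 and Trem2, did not pass: it was at 949, 753 and 729 CPM in naive and at 1410, 996 and 964 CPM in day 14 mice (0.47, adjusted p = 0.088). Between 11 and 12 of the list's genes rose with any 1 mouse left out.

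**Figure D2:**
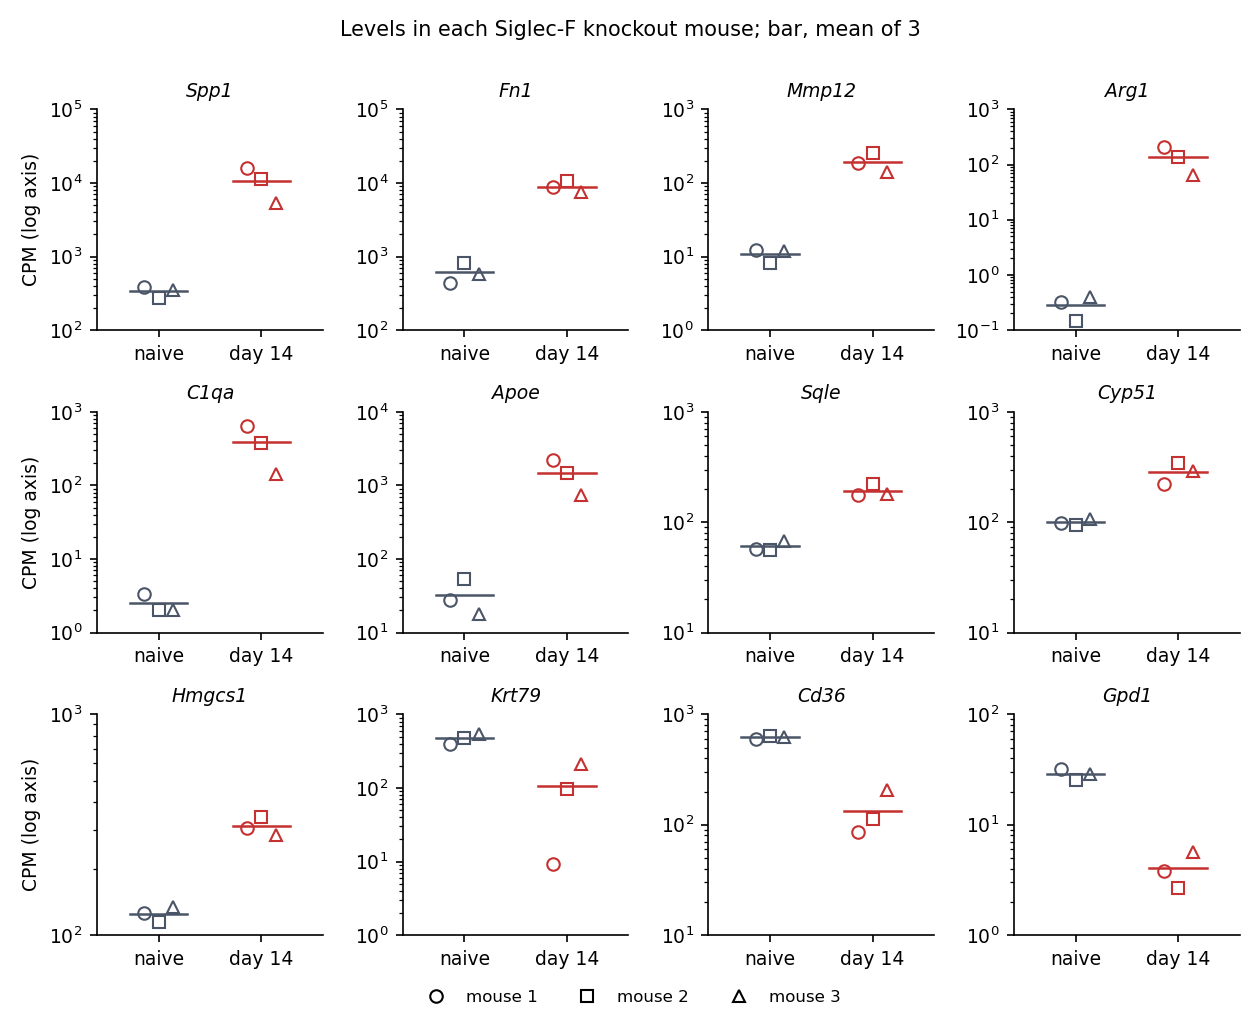
Each panel gives 1 gene's level in CPM on a log axis in the 3 naive and 3 day 14 KO mice, with a bar for the mean of 3. Spp1, Fn1, Mmp12, Arg1, C1qa and Apoe sit higher at day 14 in every mouse and Gpd1 and Cd36 lower, while Krt79 spans 9.13 to 214 CPM at day 14, and the sterol genes Sqle, Cyp51 and Hmgcs1 are higher in each of the 3 day 14 mice.

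Of 20 tested growth factor genes (23 listed), 13 rose and 1 fell, with a median of 1.73. Pdgfa, a subunit of platelet-derived growth factor, was at 0.23, 0 and 0.185 CPM in naive and at 2.84, 3.24 and 2.24 CPM in day 14 mice (4.28 ± 0.68, adjusted p = 0.00014). Pdgfb, its partner subunit, was at 2.55, 5.12 and 3.21 CPM and at 23.3, 9.38 and 5.89 CPM (1.82, adjusted p = 0.0038), and its call was lost without day 14 mouse 1. Igf1, a growth factor for fibroblasts and epithelium, was at 76.4, 38.4 and 44.1 CPM in naive and at 248, 98.4 and 73.3 CPM in day 14 mice. Mouse 3 lay below the highest naive mouse, and the call (1.40 ± 0.39, adjusted p = 0.016) was lost without day 14 mouse 1 or naive mouse 2 or 3. Hgf, an epithelial growth factor, went from 6.62, 8.55 and 7.66 CPM to 33.3, 25.6 and 12.5 CPM. Csf1, the macrophage growth factor, went from 1.1, 1.43 and 0.923 CPM to 4.98, 6.41 and 5.77 CPM (2.31 ± 0.43, adjusted p = 0.00077). The gene that fell was Tgfb1, the central fibrogenic cytokine, named after its values were seen. It was at 642, 623 and 642 CPM in naive and at 544, 515 and 569 CPM in day 14 mice (-0.23 ± 0.07, adjusted p = 0.034), and passed in only 1 of the 6 fits without 1 mouse. The number of growth factor genes that rose ranged from 7 to 13 over those fits.

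Matrix and protease genes rose in 13 of 23 tested cases (24 listed) and fell in 1, with a median of 1.96 and 12 to 14 rises with any 1 mouse left out. Ecm1, an extracellular matrix protein, was at 14.8 to 16.6 CPM in naive and at 237, 253 and 140 CPM in day 14 mice (3.77 ± 0.29, adjusted p = 7.1e-08). The heparan sulfate-cleaving enzyme gene Hpse went from 1.15, 0.942 and 0.6 CPM to 32, 21.9 and 12.4 CPM, and the membrane protease gene Adam8 from 0.115 to 0.368 CPM to 52, 26 and 13.5 CPM. Mmp19 went from 199, 166 and 174 CPM in naive mice to 751 and 590 CPM in day 14 mice 2 and 3, with mouse 1 between these and the naive mice (1.74 ± 0.19, adjusted p = 2.3e-06). Mouse 2 was the highest for Mmp19, unlike for Hpse and Adam8.

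Genes of recruited and interstitial macrophages had a median of 3.89, the largest of the lists other than those of other cell types: 16 of 21 tested (25 listed) rose, and 15 or 16 rose with any 1 mouse left out. C1qa and C1qb encode chains of complement C1q, which tags debris for uptake. C1qa was at 3.38, 2.05 and 2.03 CPM in naive and at 634, 378 and 145 CPM in day 14 mice (7.27 ± 0.66, adjusted p = 2.5e-07). C1qb was at 1.4, 1.09 and 0.646 CPM and at 584, 329 and 135 CPM (8.38 ± 0.75, adjusted p = 2e-07). Apoe, the lipid carrier, went from 27.6, 52.8 and 18 CPM to 2190, 1470 and 747 CPM (5.49 ± 0.68, adjusted p = 8e-06), and Ms4a6c, a membrane protein of monocyte-derived cells, from 21.7, 22.3 and 23 CPM to 177, 140 and 85.1 CPM. Mouse 1 was the highest in each of these, and mouse 3 was the lowest of the day 14 mice in 16 of the 16 genes that rose.

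Monocyte genes rose in 12 of 19 tested cases (20 listed) and fell in 2, Treml4 and Klf2 (1 without some mice), with a median of 2.82. Ccr2, the receptor that calls monocytes from the marrow, was at 4.9, 9.23 and 7.32 CPM in naive and at 67.2, 58.4 and 26 CPM in day 14 mice (2.82 ± 0.37, adjusted p = 1.3e-05). F13a1, a clotting factor chain of monocytes, went from 0.138, 0.169 and 0.231 CPM to 32.7, 21.8 and 14.4 CPM (6.97 ± 0.57, adjusted p = 1e-07). Itgam, the integrin CD11b, which resident alveolar macrophages carry little of, went from 4.87, 4.35 and 4.25 CPM to 61, 59 and 39.9 CPM. Csf1r, the receptor for macrophage growth factors, went from 313 to 320 CPM to 821, 718 and 565 CPM (1.14 ± 0.15, adjusted p = 1.2e-05). Ly6c2, which marks classical monocytes, stayed low: it was at 0, 0.0483 and 0.0692 CPM in naive and at 2.22, 0.545 and 0.239 CPM in day 14 mice, and its call (adjusted p = 0.024) was lost without day 14 mouse 1 or any naive mouse. All 12 genes that rose were highest in mouse 1, and 7 rose without it.

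Among cytokine and chemokine genes, 8 of 19 tested chemokines (21 listed) rose, and 5 without day 14 mouse 1 or naive mouse 1 or 3. Their median was 2.13, or 1.15 when genes silent in naive mice were set at their lower bound. Cxcl16, a membrane-bound chemokine and scavenger receptor, was at 5.82, 6.88 and 6.65 CPM in naive and at 88.8, 86.8 and 48 CPM in day 14 mice (3.53 ± 0.31, adjusted p = 2e-07). Ccl9 went from 40.8, 23.3 and 30.7 CPM to 215, 196 and 110 CPM, and the type 2 chemokine gene Ccl17 from 0.506 to 1.15 CPM to 4.03, 5.22 and 4.13 CPM. Il1b, the inflammasome cytokine, went from 3.61, 2.83 and 9.14 CPM to 40.8, 90.3 and 139 CPM (4.12 ± 0.57, adjusted p = 2.7e-05). In contrast to most genes that rose, Il1b was highest in mouse 3 and lowest in mouse 1. Of the 13 tested inflammatory cytokine genes 4 rose (2 without day 14 mouse 1 or 2 or naive mouse 2) and 1 fell; the latter, the inflammasome sensor gene Nlrp3, was at 47.1, 57.6 and 55.3 CPM in naive and at 27.9, 37 and 44.7 CPM in day 14 mice (adjusted p = 0.029), a call lost without day 14 mouse 1 or 2 or naive mouse 2 or 3.

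Every tested gene of the cholesterol synthesis list rose: 24 of 24 (25 listed), with a median of 1.32, beside 12% of all genes. The pathway builds cholesterol from acetyl-CoA, and its genes are switched on together by the transcription factor SREBP2 when membrane sterol is low. SREBP2 binds the sterol regulatory element (SRE) with the help of NF-Y, which binds the CCAAT box. An early step is Hmgcs1, at 126, 115 and 134 CPM in naive and at 306, 343 and 285 CPM in day 14 mice (1.32 ± 0.16, adjusted p = 7.6e-06). Sqle, the squalene epoxidase and a rate-limiting step, went from 56.9, 56.5 and 67.6 CPM to 178, 220 and 180 CPM (1.67 ± 0.18, adjusted p = 1.6e-06). The demethylase gene Cyp51 went from 98.2, 94.4 and 106 CPM to 220, 345 and 289 CPM (1.52 ± 0.17, adjusted p = 1.9e-06). Mouse 2 was the highest of the 3 day 14 mice in all 24 genes, unlike in most genes that rose. With any 1 mouse left out, 23 or 24 of the 24 still passed; the smallest change, in the sterol isomerase gene Ebp (0.42, adjusted p = 0.014), was lost without day 14 mouse 2 or naive mouse 1 or 2.

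Promoters of 17 of these 24 genes were found in the RefSeq table (build GRCm38.p6). In the 250 bases before the start, on either strand, the letters CCAAT occurred in 16 of the 17 genes (94.1%). The share was 40.5% of the 9613 tested genes found there and 37.5% of 27025 genes in all. A gene was counted if any of its promoters held the letters. The SRE core TCACCCCAC with at most 1 mismatch occurred in 5 of 17 (29.4%), against 10.6% of tested genes and 9.69% in all. The promoters of Hmgcs1 (chr13:119690101-119690350, plus strand), of the isomerase gene Idi1 (chr13:8885356-8885605, plus strand) and of Insig1, the sterol-sensing brake on the pathway (chr5:28071162-28071411, plus strand), are shown because they share the CCAAT letters, Hmgcs1 being the one of these with an SRE core. Idi1 and Insig1 were chosen for their sequence and not by size of change. Capitals mark CCAAT on either strand (ATTGG on the strand shown) and, in Hmgcs1, the SRE core.
Hmgcs1: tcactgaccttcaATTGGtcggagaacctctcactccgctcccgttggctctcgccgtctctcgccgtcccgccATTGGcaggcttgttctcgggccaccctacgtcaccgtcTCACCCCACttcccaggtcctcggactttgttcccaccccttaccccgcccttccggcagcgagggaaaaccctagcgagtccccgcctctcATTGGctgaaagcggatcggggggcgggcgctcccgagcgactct
Idi1: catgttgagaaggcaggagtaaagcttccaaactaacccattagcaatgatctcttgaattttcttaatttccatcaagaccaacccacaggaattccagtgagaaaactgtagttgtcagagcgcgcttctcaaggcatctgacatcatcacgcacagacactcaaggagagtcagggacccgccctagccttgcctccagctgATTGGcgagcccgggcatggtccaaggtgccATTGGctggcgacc
Insig1: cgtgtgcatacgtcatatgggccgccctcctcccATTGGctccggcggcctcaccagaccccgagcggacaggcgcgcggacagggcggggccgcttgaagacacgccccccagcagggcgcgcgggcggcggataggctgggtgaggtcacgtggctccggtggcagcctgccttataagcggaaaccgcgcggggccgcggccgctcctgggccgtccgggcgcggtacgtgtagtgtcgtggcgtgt
The SRE core of Hmgcs1 begins 137 bases before the start and matches all its letters, and CCAAT matches begin 237, 176 and 45 bases before it. Those of Idi1 begin 45 and 14 bases before its start, and that of Insig1 216 bases before. Idi1 was at 74.1, 67.1 and 81.8 CPM in naive and at 209, 266 and 195 CPM in day 14 mice (1.59 ± 0.20, adjusted p = 1.3e-05), and Insig1 at 82.6, 77.1 and 87.2 CPM and at 147, 181 and 169 CPM (1.01 ± 0.14, adjusted p = 3.3e-05). A match of letters is a description and not a binding site.

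Other lipid genes went both ways. In the list of liver X receptor (LXR) targets and lipid efflux, 6 of 15 tested genes (16 listed) rose and 2 fell, Abcg1 and Mylip (1 without day 14 mouse 2 or any naive mouse). The fatty acid synthase gene Fasn went from 123, 116 and 120 CPM to 248, 289 and 238 CPM, and the desaturase gene Scd2 from 123, 195 and 138 CPM to 349, 400 and 273 CPM (adjusted p = 0.00013 and 0.00036). Apoc2 went from 0.115 to 0.362 CPM to 11.9, 6.51 and 1.44 CPM. The cholesterol exporter gene Abcg1, named after its values were seen, was at 3170, 3420 and 3240 CPM in naive and at 1790, 2100 and 2490 CPM in day 14 mice (-0.62 ± 0.19, adjusted p = 0.032), a call kept in 1 of 6 fits without 1 mouse. Fatty acid oxidation genes fell in 9 of 24 tested cases and rose in 2 (at most 1 with some mice left out), with a median of -0.27, beside 4.84% of all genes that fell. Hadhb, a subunit of the mitochondrial trifunctional protein, was at 180, 172 and 178 CPM in naive and at 115, 116 and 128 CPM in day 14 mice (-0.56 ± 0.13, adjusted p = 0.0059). The peroxisomal enzyme gene Hsd17b4 went from 388, 425 and 410 CPM to 177, 225 and 263 CPM (-0.88 ± 0.21, adjusted p = 0.0057). Both held without any 1 mouse, while the count of genes that fell was 2 or 3 without any mouse other than day 14 mouse 3. All 9 were highest in mouse 3 of the day 14 mice. Of 36 oxidative phosphorylation genes 2 fell, Uqcrc2 and Ndufs1, a share near the 4.84% of all tested genes that fell. Both calls were lost without day 14 mouse 1 and that of Ndufs1 also without naive mouse 3, while 5 genes fell and 2 rose with the compared groups alone. Of 35 ribosomal protein genes 0 were called by edgeR, 0 had an unadjusted p under 0.05, and 0 were called by DESeq2.

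The resident alveolar macrophage genes did not move as a block. Of 28 tested, 5 rose and 5 fell, with a median of -0.14. Of all tested genes, 12% rose and 4.84% fell. The master regulator gene Pparg was at 166, 172 and 176 CPM in naive and at 108, 163 and 190 CPM in day 14 mice (-0.15, adjusted p = 0.65), the day 14 mice spanning the naive ones. Itgax, the integrin CD11c, was at 1460 to 1690 CPM in naive and at 1530 to 1790 CPM in day 14 mice (0.09, adjusted p = 0.65), and the scavenger receptor gene Marco at 504 to 1050 and 626 to 764 CPM. Chil3, the chitinase-like protein Ym1, was at 19000, 18300 and 17900 CPM in naive and at 8780, 13000 and 17300 CPM in day 14 mice (-0.50, adjusted p = 0.21). Krt79, a keratin of resident cells, showed the same spread more widely, with 397, 478 and 538 CPM in naive and 9.13, 98.3 and 214 CPM in day 14 mice (-2.13 ± 1.06, adjusted p = 0.18). Every day 14 mouse lay below every naive mouse in Krt79 and Chil3, and mouse 1 lay lowest and mouse 3 nearest the naive mice.

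Among the resident genes that passed, Fabp1, a fatty acid-binding protein, was at 150, 143 and 157 CPM in naive and at 3.74, 18.2 and 35.7 CPM in day 14 mice (-2.96 ± 0.94, adjusted p = 0.034). That call was kept only without day 14 mouse 3. The genes that fell numbered 1 to 4 with 1 mouse left out. The other genes that fell were the ribonuclease genes Ear1 and Ear2, which are near-identical copies, Abcg1 and Bhlhe41. Car4, a carbonic anhydrase of resident cells, rose: it was at 516, 325 and 371 CPM in naive and at 527, 1150 and 1230 CPM in day 14 mice (1.26 ± 0.31, adjusted p = 0.0069). Mouse 1 was at the level of the highest naive mouse for Car4, and the other day 14 mice were above it. Cd200r1, an inhibitory receptor, went from 53.8, 59.7 and 66.6 CPM to 118, 117 and 102 CPM (0.91 ± 0.11, adjusted p = 3.8e-06), and the coagulation factor gene F7 from 363 to 397 CPM to 672, 623 and 577 CPM. Fabp5 went from 371, 358 and 348 CPM to 965, 636 and 488 CPM, and the last gene that rose was Csf2rb, the signalling chain of the GM-CSF receptor.

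**Figure D3:**
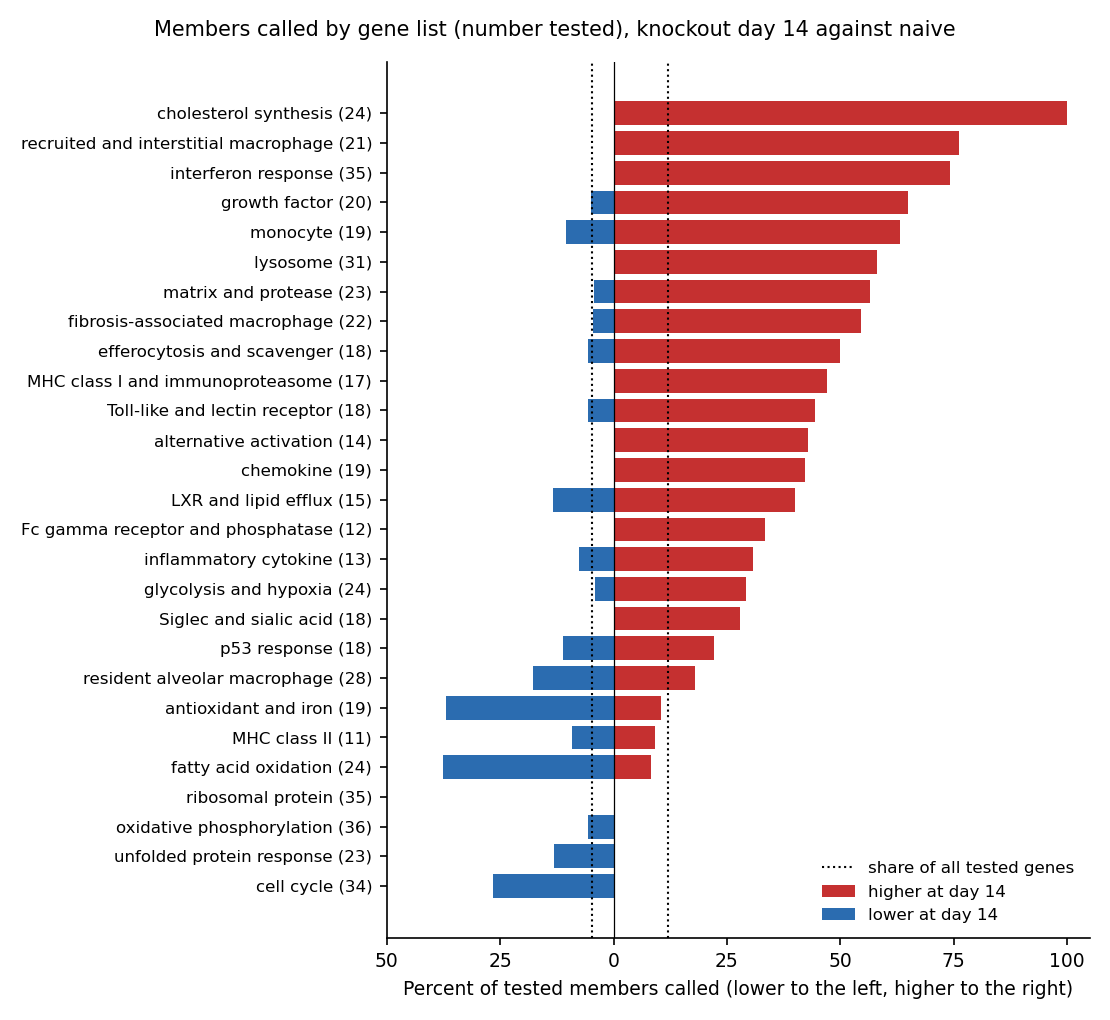
For each gene list, bars give the percent of tested members called lower (left) and called higher (right) at day 14 against naive KO mice, with the number tested in brackets and dotted lines at the shares of all tested genes (4.84% and 12%). In cholesterol synthesis 24 of 24 members were higher, and fatty acid oxidation and cell cycle have 9 lower members each.

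Interferon response genes rose in 26 of 35 tested cases (38 listed), with a median of 1.85. Oasl2, an antiviral protein related to the RNA sensors that make oligoadenylates, was at 2.67, 1.09 and 2.03 CPM in naive and at 35.4, 13.4 and 5.86 CPM in day 14 mice (3.22 ± 0.52, adjusted p = 0.00016). Oas2 went from 0.391, 0.193 and 0.208 CPM to 8.72, 3.44 and 1.71 CPM, and Irf9, the DNA-binding part of the complex that type I interferon activates, from 20.8, 19.2 and 17.7 CPM to 55.4, 35.7 and 29.8 CPM (1.06 ± 0.18, adjusted p = 0.00022). Irf7, the amplifier of the interferon loop, was at 5.91, 5.02 and 6.21 CPM in naive and at 38.5, 17.3 and 8.91 CPM in day 14 mice (1.91, adjusted p = 0.0099), and its call was lost without day 14 mouse 1. All 26 genes that rose were highest in mouse 1. Without that mouse 12 genes rose, and 17 genes rose without naive mouse 2. The interferon-stimulated response element (ISRE) is the DNA motif of that complex. Within 250 bases before the start, on either strand, its core GAAANNGAA occurred in 13 of the 24 interferon genes with a promoter found (54.2%). The share was 7.76% of tested genes and 8.18% of all genes with a promoter, and 1 of the 17 sterol genes held the core (5.88%). CCAAT occurred in 8 of the 24 (33.3%). The promoters of Ifit3 (chr19:34583279-34583528, plus strand), Isg15 (chr4:156200819-156201068, minus strand) and Rsad2 (chr12:26456453-26456702, minus strand) are shown as interferon genes with the core, chosen for their sequence. Capitals mark the core on either strand.
Ifit3: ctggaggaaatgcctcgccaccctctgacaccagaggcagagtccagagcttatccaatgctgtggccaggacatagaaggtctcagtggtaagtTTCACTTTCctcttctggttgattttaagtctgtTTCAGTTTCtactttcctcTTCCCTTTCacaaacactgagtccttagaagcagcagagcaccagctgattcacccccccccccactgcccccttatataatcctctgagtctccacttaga
Isg15: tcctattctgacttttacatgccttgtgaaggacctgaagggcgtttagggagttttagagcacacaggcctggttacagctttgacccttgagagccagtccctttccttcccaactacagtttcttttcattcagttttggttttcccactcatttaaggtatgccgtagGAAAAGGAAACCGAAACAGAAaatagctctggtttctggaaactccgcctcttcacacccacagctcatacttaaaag
Rsad2: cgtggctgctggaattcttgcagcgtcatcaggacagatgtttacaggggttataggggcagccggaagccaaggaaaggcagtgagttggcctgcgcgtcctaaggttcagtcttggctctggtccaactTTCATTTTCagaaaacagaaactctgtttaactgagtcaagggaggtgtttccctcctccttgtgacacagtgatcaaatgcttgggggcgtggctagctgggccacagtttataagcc
Matches begin 155, 121 and 102 bases before the start in Ifit3, 119 bases before in Rsad2, and 78, 72 and 66 bases before in Isg15, where they overlap. Ifit3, an antiviral RNA-binding protein, was at 3.01, 2.54 and 2.91 CPM in naive and at 22.4, 9.41 and 5.15 CPM in day 14 mice (2.12 ± 0.42, adjusted p = 0.0012), and Rsad2, the antiviral enzyme viperin, at 3.4, 1.88 and 3.12 CPM and at 21.8, 7.53 and 6.31 CPM (2.07, adjusted p = 0.0011). Isg15, a ubiquitin-like modifier, has the core 3 times and did not pass: it was at 3.61, 2.42 and 4.62 CPM in naive and at 13.3, 5.01 and 4.31 CPM in day 14 mice (1.07, adjusted p = 0.074).

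Of 31 lysosome genes 18 rose, with a median of 0.35, and 11 to 21 rose with 1 mouse left out (11 without day 14 mouse 1). The cathepsin D gene Ctsd was at 9670, 9230 and 9580 CPM in naive and at 23400, 17800 and 15300 CPM in day 14 mice (0.99 ± 0.15, adjusted p = 6e-05). Ctsh, which encodes cathepsin H, went from 373, 405 and 411 CPM to 775, 660 and 503 CPM (0.70 ± 0.12, adjusted p = 0.00037). Of 18 tested efferocytosis and scavenger genes 9 rose, Cd36 fell and 8 were not called. The scavenger receptor gene Msr1 was at 24.4, 7.68 and 14.5 CPM in naive and at 328, 275 and 158 CPM in day 14 mice (4.03 ± 0.41, adjusted p = 8.4e-07), and Stab1, another scavenger receptor, at 0.415 to 0.725 CPM and at 32.5, 19.4 and 8.05 CPM. Itgb5, an integrin chain that takes part in the uptake of dying cells, went from 289, 276 and 278 CPM to 877, 682 and 543 CPM. Mouse 1 was the highest and mouse 3 the lowest in each of these 5 genes.

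Receptors and antigen presentation changed in part, and their counts stand beside the 12% of all tested genes that rose and the 4.84% that fell. Of 12 Fc gamma receptor and phosphatase genes 4 rose (2 without any mouse other than day 14 mouse 3); the inhibitory receptor gene Fcgr2b went from 112, 108 and 107 CPM to 269, 326 and 297 CPM (1.45 ± 0.24, adjusted p = 0.00022). Of 18 Siglec and sialic acid genes 5 rose (2 without day 14 mouse 2, and 3 without day 14 mouse 1 or naive mouse 1 or 3), among them the sialyltransferase gene St8sia4, from 7.38, 8.65 and 8.86 CPM to 17.5, 23 and 22.3 CPM (1.34 ± 0.21, adjusted p = 0.00013). Of 18 Toll-like and lectin receptor genes 8 rose and 1 fell, Tlr5, a call lost without any mouse other than day 14 mouse 3; Tlr9, a sensor of DNA, went from 0.529, 0.773 and 0.508 CPM to 9.42, 3.61 and 2.66 CPM. MHC class I genes rose in 8 of 17 tested cases, with H2-K1 at 677, 655 and 723 CPM in naive and at 1630, 1190 and 918 CPM in day 14 mice (0.86 ± 0.16, adjusted p = 0.0006), but in 3 without day 14 mouse 1, in 5 without naive mouse 1 or 2 and in 4 with the compared groups alone. Of 11 MHC class II genes 1 rose and 1 fell, beside 12% and 4.84% of all tested genes. The former was the invariant-chain protease gene Ctss. The latter was H2-Oa, a call lost without day 14 mouse 2 or 3 or naive mouse 1 or 2. Cd74, the invariant chain itself, was at 765, 1890 and 1560 CPM in naive and at 3520, 2170 and 1220 CPM in day 14 mice (0.71, adjusted p = 0.23), with overlapping groups. Of 14 genes of alternative activation 6 rose, among them Arg1 and Il4ra, the interleukin-4 receptor chain, which went from 159, 158 and 166 CPM to 420, 411 and 327 CPM (1.26 ± 0.14, adjusted p = 2.3e-06).

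The counts of this paragraph stand beside the 12% of all tested genes that rose and the 4.84% that fell. Of 34 cell cycle genes 9 fell, with a median of -0.26, and 6 to 8 fell with 1 mouse left out. The genes with the smallest p were helicase subunits that open DNA for replication. Mcm5 was at 57.8, 52.9 and 58.8 CPM in naive and at 36.6, 33.1 and 32.2 CPM in day 14 mice (-0.74 ± 0.12, adjusted p = 0.00011), and Mcm6 at 92.6, 83 and 83.2 CPM and at 55.5, 49.1 and 57.5 CPM (-0.67 ± 0.11, adjusted p = 0.00012). Mki67, a marker of cells in cycle, was at 74.2, 42 and 53.1 CPM in naive and at 74.6, 65.2 and 63.7 CPM in day 14 mice (0.27, adjusted p = 0.81). Of 19 antioxidant and iron genes 7 fell and 2 rose, though 2 to 5 fell with 1 mouse left out; the thioredoxin reductase gene Txnrd1 went from 255, 249 and 258 CPM to 190, 166 and 174 CPM (-0.52, adjusted p = 6.9e-05). In the unfolded protein response list (median -0.01) 3 of 23 fell and 20 were not called. The 3 included Asns, which makes asparagine, from 9.91, 13.3 and 11.6 CPM to 5.31, 3.34 and 4.61 CPM (-1.40 ± 0.27, adjusted p = 0.0011). Glycolysis and hypoxia genes rose in 7 of 24 cases and fell in 1, Pfkp, a call lost without day 14 mouse 1 or naive mouse 2 or 3. The glucose transporter gene Slc2a1 went from 32.3, 32.1 and 35.1 CPM to 103, 107 and 82.6 CPM (1.55 ± 0.18, adjusted p = 3.5e-06), and Hif1a, the oxygen-sensing transcription factor, from 107, 110 and 115 CPM to 221, 207 and 168 CPM.

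Some markers of other cells that a lavage can hold were higher at day 14, unevenly across the mice, and others were lower. The first sums given here leave out markers above 10 CPM in naive mice, which are Epcam, Cdh1, Cd2, Csf3r, Cxcr2, Mmp8, Ccl22, Cd24a and Vwf. Epithelial markers (10 genes) summed to 1.27, 1.45 and 1.59 CPM in naive and to 62.6, 9.34 and 4.46 CPM in day 14 mice, and 7 of 12 tested markers rose and 1 fell, but 2 rose without day 14 mouse 1, 4 without naive mouse 2 and 3 without naive mouse 1 or 3. The marker that fell was Epcam, an adhesion molecule, at 49.7, 141 and 121 CPM in naive and at 11.8, 36.8 and 39.3 CPM in day 14 mice (-1.82, adjusted p = 0.045), a call kept in 1 of 6 fits without 1 mouse. Cldn18 of alveolar epithelium, for example, was at 0 in all naive mice and at 7.73, 1.26 and 0.0598 CPM at day 14. T and NK cell markers (13 genes) summed to 1.06 to 1.78 CPM in naive and to 20.4, 9.45 and 11 CPM in day 14 mice, and 9 of 13 rose (5 with the compared groups alone), Cd3e of the T cell receptor complex being at 0, 0 and 0.0462 CPM and at 3.25, 0.989 and 1.29 CPM. Neutrophil markers (6 genes) summed to 8.07, 6.86 and 4.18 CPM and to 56.8, 34.9 and 22.3 CPM, nearly all of the day 14 sum being S100a8 (55, 33.9 and 21.3 CPM). Of 8 tested neutrophil markers S100a8 and Mmp8 rose and 1 fell, the receptor gene Csf3r, at 39.3, 42.3 and 43.5 CPM and at 19.5, 23 and 23 CPM (-0.93, adjusted p = 0.026), a call lost without day 14 mouse 1 or 2 or naive mouse 2 or 3. Dendritic cell markers (10 genes) summed to 5.19, 6.14 and 5 CPM and to 30.8, 7.74 and 5.84 CPM, with day 14 mouse 3 below naive mouse 2. Of 12 tested dendritic markers 5 rose and 1 fell, the transcription factor gene Batf3, at 4.32, 4.3 and 3.99 CPM and at 1.03, 1.53 and 0.509 CPM (-2.04, adjusted p = 0.00022). Erythroid markers (5 genes) summed to 0, 0 and 0.0231 CPM and to 22.2, 6.41 and 122 CPM. Of these 5 genes 3 rose, and 1 without day 14 mouse 3 or naive mouse 2 or 3. Hbb-b1, which is not among the 5, was at 17.3, 3.44 and 82.5 CPM at day 14. That is at least 1470-fold above the floor of 3 counts over the naive group. Of 3 B cell markers Cd79a and Cd79b rose, at most 1 of them with any 1 mouse left out. B cell markers summed to at most 0.193 CPM in naive and to 2.47, 0.511 and 0.779 CPM in day 14 mice, mesenchymal and endothelial ones to at most 0.345 CPM and to 1.52, 0.238 and 0.868 CPM, day 14 mouse 2 lying within the naive range, and eosinophil and mast cell ones to at most 0.207 and 0.987 CPM. Of 5 mesenchymal and endothelial markers and 1 eosinophil and mast cell marker 0 were called by edgeR, 1 and 1 had an unadjusted p under 0.05, and DESeq2 called 0. Over all their markers the groups lay differently. All epithelial markers summed to 202, 287 and 264 CPM in naive and to 157, 235 and 224 CPM in day 14 mice, and all T and NK markers to 303, 401 and 397 CPM and to 136, 259 and 289 CPM, nearly all of it Cd2 (302, 400 and 395 CPM and 116, 249 and 278 CPM, -0.77, adjusted p = 0.25). All neutrophil markers summed to 147, 107 and 120 CPM and to 197, 372 and 303 CPM, all dendritic markers to 157, 189 and 178 CPM and to 385, 301 and 201 CPM, and all mesenchymal and endothelial markers to 128, 114 and 102 CPM and to 124, 128 and 122 CPM. Mouse 1, the highest in most genes that rose, was also the highest in the first epithelial, T and NK, neutrophil, dendritic, B cell and mesenchymal sums, and mouse 3 in the erythroid sum. Over all markers mouse 1 was the highest of the day 14 mice in the dendritic sum and the lowest in the epithelial, T and NK and neutrophil sums. The part of these cells in the results above was not tested.

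Whether the KO response at day 14 differed from the WT response was tested as the difference of the 2 responses in the same fit; the 2 responses share no library. It differed in 42 genes (0.332% of those tested), 27 with a higher response in KO mice (0.214%) and 15 with a lower one (0.119%), and 1299 genes (10.3%) had an unadjusted p under 0.05. The count depended on single mice: it was 216 without KO day 14 mouse 1, 51 without WT naive mouse 2 and 6 to 24 without any of the other 10 mice. The naive WT libraries were uneven in Rn45s, which took 6, 0.743 and 2.59% of their counts, and 3.6, 1.74 and 4.46% in day 14 WT mice. Its part in the genotype difference was not tested. Few members of the lists differed, as did few of all tested genes (0.332%). The 24 sterol genes, the 35 interferon genes, the 21 recruited and 22 fibrosis-associated macrophage genes and the 20 growth factor genes held 0 differences each called by edgeR. At an unadjusted p under 0.05 there were 1 sterol, 4 interferon, 5 recruited, 4 fibrosis-associated and 5 growth factor genes, beside 10.3% of all tested genes. DESeq2 called 0, 0, 2, 1 and 2 members of these lists. Their median differences of responses were 0.1, -0.54, -0.92, -0.29 and -0.31 on the log2 scale, against 0.01 over all tested genes. The 19 monocyte genes had a median of -1.12, with 0 called by edgeR, 4 at an unadjusted p under 0.05 and 2 called by DESeq2. The genes of the function lists that edgeR called were Bhlhe41 and Tlr13, with a lower response in KO mice, and Plaur, the urokinase receptor. Plaur had a higher response and was named after its values were seen. Plaur was at 191, 199 and 221 CPM in naive and 170, 276 and 297 CPM in day 14 KO mice, and at 370, 308 and 373 and 148, 151 and 175 CPM in WT mice (difference of responses 1.43 ± 0.22, adjusted p = 0.0042).

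In the 6 named genes with a higher response in KO mice, the naive WT mean lay above the naive KO mean, and the day 14 WT mean lay below the naive WT mean. Mxd1, a repressor that opposes MYC, was at 27.7, 30.7 and 29.8 CPM in naive and at 28, 42.9 and 41.7 CPM in day 14 KO mice. In WT mice it was at 60.9, 66.3 and 62.8 CPM and then at 21.7, 22.3 and 28.3 CPM, so the responses differed by 1.75 ± 0.20 on the log2 scale (adjusted p = 0.00035), a call that held without any 1 of the 12 mice. Luc7l, a splicing factor, was at 10.2, 11 and 12.9 CPM and at 23.3, 24.1 and 23.1 CPM in KO mice and at 36.8, 25.8 and 33.5 and 17.9, 24.4 and 24.2 CPM in WT mice (1.59 ± 0.25, adjusted p = 0.0053), also held throughout. Tsc22d3, the glucocorticoid-induced leucine zipper, was at 82.3, 82.6 and 156 CPM in naive and 70.8, 268 and 215 CPM in day 14 KO mice, and at 396, 344 and 380 and 69.1, 91.8 and 133 CPM in WT mice (2.72 ± 0.49, adjusted p = 0.02). Mouse 1 of the KO day 14 group stayed near the naive KO mice in Tsc22d3 and Mxd1, and the Tsc22d3 call held in 5 of 12 fits without 1 mouse.

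In the 6 named genes with a lower response in KO mice, the naive KO mean lay above the naive WT mean. Plekho2, a membrane-associated signalling protein, was at 164, 176 and 165 CPM in naive and at 152, 115 and 122 CPM in day 14 KO mice, whereas WT mice went from 74.1, 106 and 86.9 CPM to 158, 161 and 171 CPM (-1.26 ± 0.19, adjusted p = 0.0042, held without any 1 mouse). Bcl6, a repressor of inflammatory genes, was at 16.8, 14 and 13.8 CPM and at 15.8, 11.6 and 12.9 CPM in KO mice and at 7.77, 8.72 and 6.57 and 20.4, 22.8 and 20.7 CPM in WT mice (-1.63 ± 0.30, adjusted p = 0.022, in 7 of 12 fits). Bhlhe41, a transcription factor of self-renewing alveolar macrophages, was at 307, 283 and 233 CPM in naive and 254, 118 and 150 CPM in day 14 KO mice and at 106, 177 and 146 and 297, 276 and 205 CPM in WT mice (-1.52 ± 0.32, adjusted p = 0.043, in 3 of 12 fits). In each of the 3 genes the naive KO mice did not overlap the naive WT mice, and in Plekho2 and Bcl6 the day 14 KO mice lay below all day 14 WT mice.

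**Figure D4:**
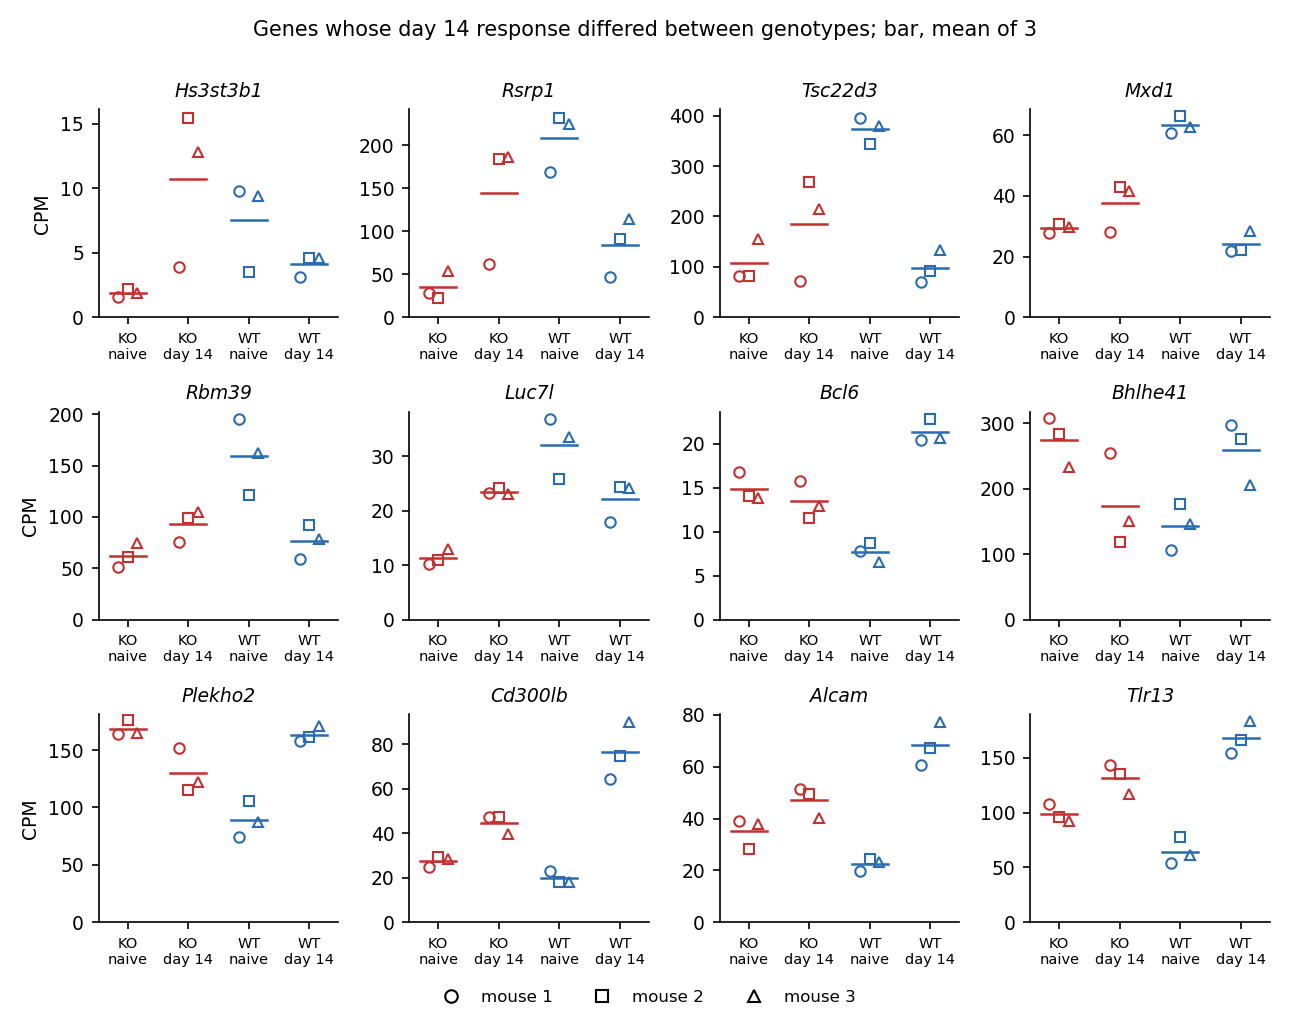
Levels in CPM, linear axes from 0, of the 12 genes chosen by size of the difference between the KO and WT responses, in each mouse of 4 groups with a bar for the mean of 3. In panels such as Mxd1 and Luc7l the WT values are lower at day 14 than in naive mice and the KO values are not; in panels such as Plekho2 and Bcl6 the WT values are higher at day 14 and the KO values are not.

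Day 14 was also tested directly against day 7 in KO mice, because comparisons of both days with naive mice share the naive controls. 1897 genes (15%) differed, 858 higher (6.79%) and 1039 lower (8.22%) at day 14, and 3637 genes (28.8%) had an unadjusted p under 0.05. The count was 1130 without day 14 mouse 2, 1014 without day 14 mouse 3 and 899 without day 7 mouse 1. Most listed monocyte markers were lower at day 14. Ccr2 was at 359, 346 and 274 CPM at day 7 and at 67.2, 58.4 and 26 CPM at day 14 (-2.69, adjusted p = 8.7e-05), and Ly6c2 at 84.6, 87.4 and 59.2 CPM and at 2.22, 0.545 and 0.239 CPM (-6.35, adjusted p = 2.9e-05). The monocyte chemokine genes Ccl2 and Ccl7 went from 101, 94 and 24.4 CPM to 3.95, 1.3 and 0.359 CPM and from 57.7, 56.5 and 14.1 CPM to 1.19, 0.852 and 0.209 CPM. The lectin gene Mgl2 of dendritic cells and interstitial macrophages went from 55.3, 38.1 and 21.1 CPM to 1.36, 1.53 and 0.628 CPM (-5.04, adjusted p = 4.2e-06). In the monocyte list 11 of 19 were lower and 1 higher, and in the recruited and interstitial list 11 of 21 were lower and 1 higher. Of the interferon genes 21 of 35 were lower (median -1.23; 29 without day 14 mouse 1, 9 without day 14 mouse 2, 8 without day 14 mouse 3, 13 without day 7 mouse 2 and 10 with the compared groups alone), with Oasl2 at 68.8, 91.2 and 70.6 CPM at day 7, and of the cell cycle genes 30 of 34 (median -0.94), with Mcm5 at 79.8, 62.6 and 91.1 CPM at day 7.

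Most sterol genes and some resident genes were higher at day 14 than at day 7. Of the 24 sterol genes 20 were higher, with a median of 0.76: Sqle was 1.04 higher on the log2 scale (adjusted p = 0.00062) and Cyp51 1.00 higher (adjusted p = 0.00047). Of the 28 resident genes 13 were higher (8 without day 7 mouse 1), with a median of 0.68; Pparg was at 64, 67.4 and 104 CPM at day 7 (0.97, adjusted p = 0.0018), and Itgax was 0.84 higher at day 14 (adjusted p = 8.3e-05). Mfge8 went on from 98.7, 143 and 96.2 CPM at day 7 to 529, 373 and 204 CPM at day 14 (1.71 ± 0.32, adjusted p = 0.0012), and Il1b from 21.7, 31 and 22.6 CPM to 40.8, 90.3 and 139 CPM (1.85, adjusted p = 0.018). The apolipoprotein gene Apoc1 went from 0.468, 1.66 and 1.44 CPM to 15.7, 6.61 and 5.32 CPM (2.95 ± 0.68, adjusted p = 0.0057), the cytokine gene Lif from 1.43, 3.85 and 1.55 CPM to 9.95, 8.83 and 10.9 CPM, and the transcriptional coregulator gene Cited4 from 2.26, 4.22 and 2.04 CPM to 13.8, 10.7 and 14.9 CPM. Spp1, with a day 7 mean of 4800 CPM, did not pass (1.16, adjusted p = 0.091).

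**Figure D5:**
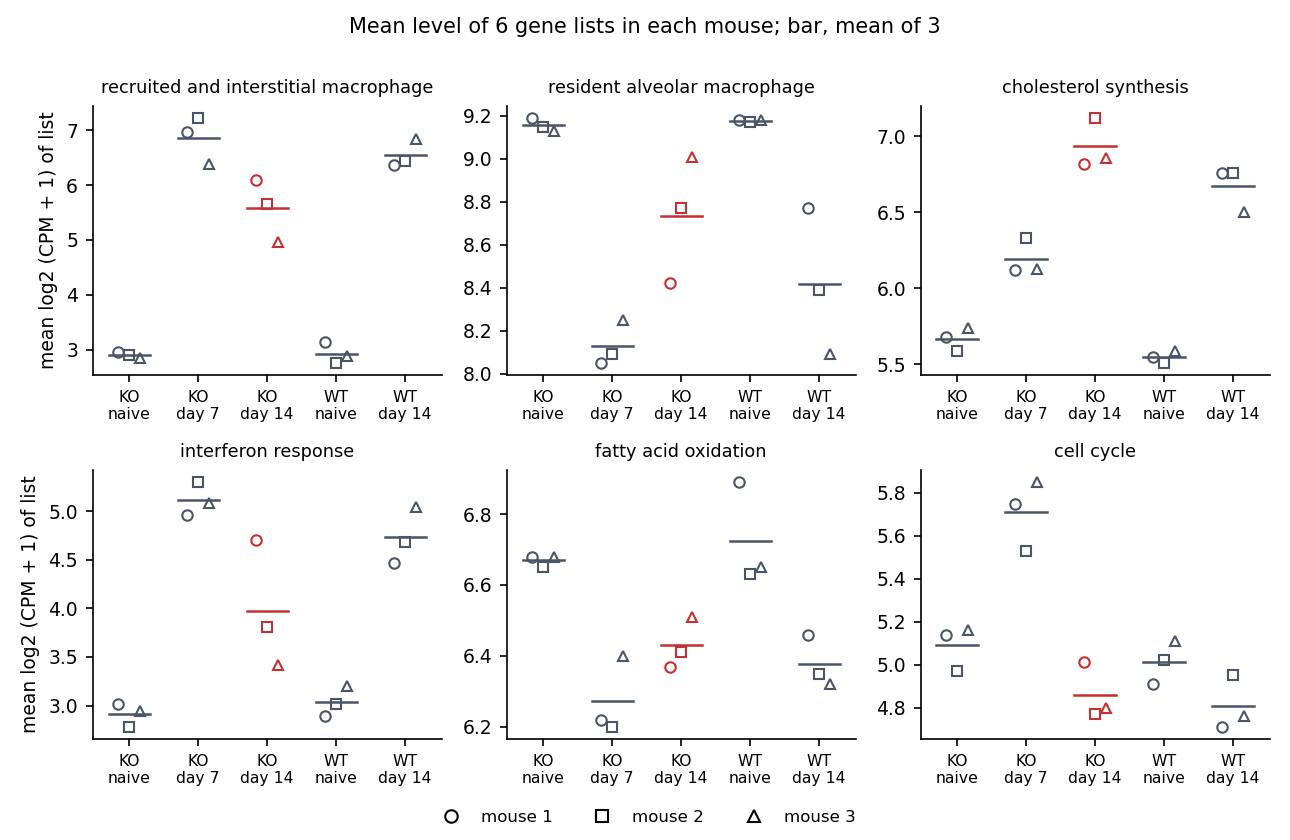
Mean of log2(CPM + 1) over the tested genes of 6 lists in each mouse of 5 groups, with a bar for the mean of 3. Cholesterol synthesis is highest in the KO day 14 mice (6.82 to 7.12, against 6.12 to 6.33 at day 7 and 5.59 to 5.74 in naive KO mice). The WT day 14 mice lie close below, at 6.76, 6.76 and 6.5. In KO mice the interferon list is at 4.7, 3.81 and 3.42 at day 14, between the naive (2.78 to 3.02) and day 7 (4.96 to 5.3) levels.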

How the data were processed

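RNA of BAL macrophages was sequenced from mRNA libraries (Universal Plus mRNA-Seq with NuQuant, 200 ng, 150 bp paired ends), per the labels' protocols. The authors deposited expected counts, estimated counts per gene that need not be whole, in 1 table with 1 column per mouse, for 24411 genes. The submitters' processing notes name mm10, bcl2fastq, DESeq2 1.42.0 and limma 3.58.1. The aligner, the counting tool and any use of strand are not stated, which makes values of overlapping, antisense and near-identical genes (MHC genes, hemoglobins, Ly6c2, Ear1 with Ear2, Hspa1a with Hspa1b) uncertain. Each mouse is listed with 2 runs, and whether a column sums them is not stated. A further 24 columns of other samples were not used.

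Expected counts were rounded. Genes were kept with edgeR 4.0.16 filterByExpr (minimum count 10, minimum total 15), scaled with TMM, and fitted with 1 quasi-likelihood model of 8 group means over 24 libraries in R 4.3.3 (16 residual degrees of freedom). The SE given with a log2 fold change is its size divided by the square root of the F statistic of its test. It restates that test and is no separate measure of spread. In genes near 0 in naive mice it depends on the prior count, as the fold change does. P-values were adjusted by Benjamini-Hochberg over all 12634 tested genes and called under 0.05. The replicates are single mice with their own animal numbers. Positions came from GENCODE M21. Alternatives were DESeq2 1.42.0, RLE scaling, no expression filter, a fit with no other groups than those compared, a block for the mouse number, and leaving out each mouse. Floors are 3 counts over a group and cover counting error only, since reads carry no molecular identifiers. The pipeline was tested on simulated data for KO day 14 against KO naive with 200 genes altered among 12473. The share recovered was 37.3% at 1.5-fold, 85.1% at 2-fold and 95.5% at 4-fold, and 5 of 150 calls were false. The altered genes were drawn only from genes above a minimum mean count. These shares therefore do not cover genes with few counts or genes silent in naive mice.

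The comparison, the gene lists, the naming rule and the alternatives were chosen with earlier results of these data known. Lists are therefore described by counts and medians, without a test. The rule names, per comparison, the 8 largest changes each way among called genes with a standard symbol, at least 5 CPM on average in the highest group, no overlap of the mice and a call without any 1 mouse. For the genotype difference it names 6 each way without the last 2 conditions. It adds a fixed panel and up to 4 members of each list by smallest p. Cd36, Tgfb1, Abcg1, Ebp, Ear1, Ear2, Csf2rb, Plaur, Treml4, Klf2, Mylip, Tlr5 and Pfkp were named outside it, after their values were seen. So were the markers Cd2, Epcam, Cdh1, Cxcr2, Ccl22 and Cd24a of other cell types, and Idi1, Insig1, Ifit3, Rsad2 and Isg15 (for their promoters). Some genes that the rule names or that a count includes are not reported here.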

Additional observations from a re-analysis of the deposited data

Results flagged for a closer look

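For 12 genes the day 14 response differed between KO and WT mice by the test of the difference itself (edgeR quasi-likelihood, Benjamini-Hochberg adjusted), the log2 value being the KO response minus the WT response over 3 mice in each of 4 groups. Both responses are measured from naive mice whose levels differ between the genotypes in these genes.

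Higher in KO were Hs3st3b1, a heparan sulfate sulfotransferase (3.41, adjusted p = 0.011), Rsrp1 (3.36, adjusted p = 0.022), Tsc22d3 (2.72, adjusted p = 0.02), Mxd1 (1.75, adjusted p = 0.00035), and the splicing factor genes Rbm39 (1.64, adjusted p = 0.015) and Luc7l (1.59, adjusted p = 0.0053). Hs3st3b1 was at 1.54, 2.17 and 1.85 CPM in naive and 3.87, 15.4 and 12.8 CPM in day 14 KO mice, and at 9.75, 3.53 and 9.4 and 3.12, 4.6 and 4.6 CPM in WT mice, and its call was lost without KO naive mouse 1. Rsrp1 was at 28.2, 22.4 and 53.8 and 62.1, 184 and 186 CPM in KO mice and at 169, 231 and 224 and 46.4, 90.8 and 114 CPM in WT mice; its call held in 5 of 12 fits without 1 mouse. Rbm39 was at 51.5, 61.1 and 74.7 and 75.8, 98.7 and 105 CPM in KO mice and at 195, 121 and 162 and 58.6, 92.3 and 78.5 CPM in WT mice, and held in 9 of 12.

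Lower in KO were Bcl6 (-1.63, adjusted p = 0.022), Bhlhe41 (-1.52, adjusted p = 0.043), Plekho2 (-1.26, adjusted p = 0.0042), the myeloid receptor gene Cd300lb (-1.25, adjusted p = 0.039), the adhesion molecule gene Alcam (-1.18, adjusted p = 0.039) and Tlr13, a sensor of bacterial RNA (-0.97, adjusted p = 0.048). Cd300lb was at 24.9, 29.4 and 28.2 and 47.3, 47.1 and 39.8 CPM in KO mice and at 22.8, 18.2 and 18.1 and 64.5, 74.5 and 89.8 CPM in WT mice. Alcam was at 39.2, 28.2 and 37.8 and 51.4, 49.5 and 40.1 CPM in KO mice and at 19.9, 24.2 and 23.4 and 60.6, 67.2 and 77.3 CPM in WT mice. Tlr13 was at 108, 96 and 92.5 and 143, 135 and 117 CPM in KO mice and at 53.6, 78.1 and 61.5 and 154, 166 and 183 CPM in WT mice. These 3 calls held in 3, 4 and 2 of the 12 fits without 1 mouse.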

How the results depend on the processing

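The count of genes changed at day 14 against naive was 2542 with DESeq2, 2144 with RLE scaling, 1925 without the expression filter and 2175 with the compared groups alone, beside 2132. Leaving out 1 mouse gave 1276 to 2310 (higher 1022 to 1628, lower 254 to 682). The genotype difference moved most: beside 42 (27 higher, 15 lower), DESeq2 called 214 (114 higher, 100 lower), the compared groups alone 8 (5 and 3), and leaving out 1 mouse 6 to 216 (5 to 119 higher, 1 to 97 lower). Day 14 against day 7 gave 1897, and 899 to 2027 with 1 mouse left out (360 to 921 higher, 539 to 1106 lower). The causes were not tested. With the mouse number as a replicate block the 3 counts were 2107, 34 and 1912. Deviations from the group mean correlated at 0.0967, -0.00627 and 0.0737 between same-numbered naive and day 14 KO mice. In WT mice they correlated at 0.13, 0.182 and 0.027. Mice with different numbers gave -0.115 to 0.0763 in KO and -0.164 to 0.0668 in WT mice. With 3 mice a group these values cannot decide whether the numbers pair mice. Among the named genes, no change called in the main fit or in an alternative had the opposite sign in the other. Sign changes of genes called in neither were not counted. The fold changes of genes silent in naive mice depend on the prior count and are no bounds, and with 3 mice a group the simulated 1.5-fold changes were mostly missed.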

Other observations

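Genes of the p53 list moved in both directions in KO mice at day 14. Of 18 tested genes 4 rose and 2 fell, beside 12% and 4.84% of all tested genes. Without naive mouse 2 only 2 rose, and at most 1 fell with some mice left out. The part of DNA damage in these changes was not tested. Cdkn1a, the p21 cell cycle inhibitor, was at 138, 122 and 136 CPM in naive and at 112, 172 and 197 CPM in day 14 mice (0.29, adjusted p = 0.38). Sesn1, a stress-induced regulator of growth signalling, went from 3.98, 2.9 and 3.9 CPM to 22.1, 14.3 and 8.88 CPM (2.06 ± 0.33, adjusted p = 0.00012), and Trp53inp1, a p53 cofactor, from 22.8, 20 and 22.4 CPM to 45.5, 43.6 and 39.7 CPM (0.98 ± 0.13, adjusted p = 2.4e-05). Perp, a membrane effector of p53, went from 188, 206 and 207 CPM to 103, 114 and 139 CPM (-0.75 ± 0.20, adjusted p = 0.013), a call lost without day 14 mouse 1 or 2. Cdkn1a was named after its values were seen.

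Gpx3, the secreted glutathione peroxidase, was at 1.89, 1.69 and 1.78 CPM in naive and at 34.1, 12.7 and 7.06 CPM in day 14 mice (3.32 ± 0.57, adjusted p = 0.0003), while the cystine transporter gene Slc7a11 was at 78.4, 86.6 and 91 CPM and at 41.7, 47.9 and 47.8 CPM (-0.90, adjusted p = 0.0091).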
